A study of Homo sapiens with 24 samples.

Results

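The 39 genes described here encode 29 nuclear receptors and 10 coregulators, the coactivators and corepressors that receptors recruit. They were picked by gene symbol from 4 expression tables of human cell lines, and the rule uses none of their values, although the list was drawn up with earlier results of these data known. Of the 39, 38 had a mean of at least 10 in 1 table or more, 36 did so in each table taken alone, and 34 did so in every table. PPARGC1A was the member under that mean everywhere. In all, 16742 genes had an entry in 1 table or more, and 15168 of them had a mean of at least 10.

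The study sequenced mRNA of 4 aneuploid lines and of the lines they came from, with 3 libraries of each of 8 lines and 24 libraries in all. HCT116 is a near-diploid line from a human colon carcinoma with a modal chromosome number of 45, and RPE1 is a near-diploid line from human retinal pigment epithelium, immortalized with telomerase (hTERT), with a modal number of 46. HCT116 5/4 is tetrasomic for chromosome 5 and its parental line is HCT116. HCT116* 8/3 c7 is trisomic for chromosome 8, RPE1 5/3 12/3 is trisomic for chromosomes 5 and 12, and RPE1* 21/3 is trisomic for chromosome 21. The asterisk marks lines that stably express histone H2B fused to GFP, a feature shared by HCT116* 8/3 c7 with its parental HCT116* and by RPE1* 21/3 with its parental RPE1*. In the 3 trisomic lines the chromosome was added by microcell transfer, apart from chromosome 12 in RPE1 5/3 12/3, which was gained spontaneously. Each aneuploid state was represented by 1 line, and c7 denotes 1 clone. HCT116 5/4 came from another laboratory than HCT116*. For HCT116 the paper names that laboratory in its list of lines and the American Type Culture Collection in its methods. All lines grew in DMEM with fetal calf serum, which itself carries steroid hormones and retinoids, and no receptor ligand was added according to the labels.

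Each table gives 1 mean per gene, pooled by the authors over the 3 aneuploid and the 3 parental libraries. The authors' columns that compare aneuploid with parental lines were set aside, and no value of a single library was analysed here. The means used therefore have no error or test and do not separate aneuploid from parental lines, and the comparisons below are between tables. The tables were normalized separately and were scaled to each other by the median ratio over 13107 genes with an entry in all 4; the result is called the scaled mean. The tables held between 14292 and 15610 genes. The tables do not give the depth of a library. The 2 tables of 1 cell type are not replicates, since they differ in line, karyotype and H2B-GFP. A bulk mean cannot tell fewer cells with a transcript from less transcript per cell.

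Nuclear receptors are transcription factors that bind DNA through a zinc finger domain and, in most cases, change their activity when a small lipophilic ligand enters their ligand-binding domain. Many bind as dimers with a retinoid X receptor, recruit corepressor complexes such as NCOR1 in the absence of ligand, and exchange them for coactivators such as the p160 proteins when ligand binds. In the colon, vitamin D, retinoid and fatty acid receptors and HNF4A govern differentiation and lipid handling. In the retinal pigment epithelium retinoids are handled for the visual cycle, which is a role apart from retinoic acid signalling.

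A retinoic acid response element in its classical form holds a pair of direct half-sites spaced by 5 bases, and the genes for retinoic acid receptor beta and the retinoic acid hydroxylase CYP26A1 are the textbook examples. Both are shown, since RARB was the retinoid receptor with an entry in the tables of only 1 cell type. The first base of a half-site varies and was left open, so the letters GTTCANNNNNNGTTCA were searched on both strands of the RefSeq promoter windows (GRCh38.p14), which run from 250 bases before to 50 bases after a start. They occurred in 20 of 35116 windows, or 0.0570%. Capitals mark the match. Of 72 windows for 34 members, 1 held it, at a start of RARB.
RARB, chr3:25428171-25428262, plus strand: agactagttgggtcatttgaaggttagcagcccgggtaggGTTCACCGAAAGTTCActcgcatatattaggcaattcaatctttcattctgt
CYP26A1, chr10:93073763-93073858, plus strand: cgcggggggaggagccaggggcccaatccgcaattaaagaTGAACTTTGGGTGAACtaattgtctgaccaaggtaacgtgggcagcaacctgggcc
The match lay 52 to 37 bases before the start in RARB and, in the reverse direction, 90 to 75 bases before the start in CYP26A1. A match is a description of the letters and no evidence of binding.

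The cell types were checked against their markers first. Of 8 colon epithelium markers, CLDN4 and KRT8 were at least 2-fold higher in both HCT116 tables, CDH1, KRT20 and CDX2 had an entry in the HCT116 tables alone, and VIL1 had none. EPCAM had scaled means of 3870 and 5061 in HCT116, 4.73 in RPE1 5/3 12/3 and no entry in RPE1* 21/3. KRT18 was higher in HCT116 in every pairing, but by only 1.12-fold in the smallest. The summed scaled means of the colon markers were 93700 and 83956 in the HCT116 tables against 31853 and 36758 in the RPE1 tables. KRT8 and KRT18 made up most of these sums. Of 6 mesenchymal markers, COL1A1, FN1 and VIM were higher in both RPE1 tables, with sums of 2206 and 1453 in HCT116 against 561161 and 614994 in RPE1. The 8 retinal pigment epithelium markers went both ways, with sums of 58781 and 53490 in HCT116 and 21700 and 22349 in RPE1 that KRT8 made up for the most part. MITF, BEST1, OTX2 and RLBP1 were higher or listed only in RPE1. In contrast, the visual cycle isomerase RPE65 had scaled means of 265 and 173 in HCT116 and 10.3 and 5.59 in RPE1. PMEL, like KRT8, was also higher in HCT116, with 89.6 and 122 against 17.7 and 18.1 in RPE1, and TYRP1 had no entry. The part of these cell type differences in the results on receptors was not tested.

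**Figure D1:**
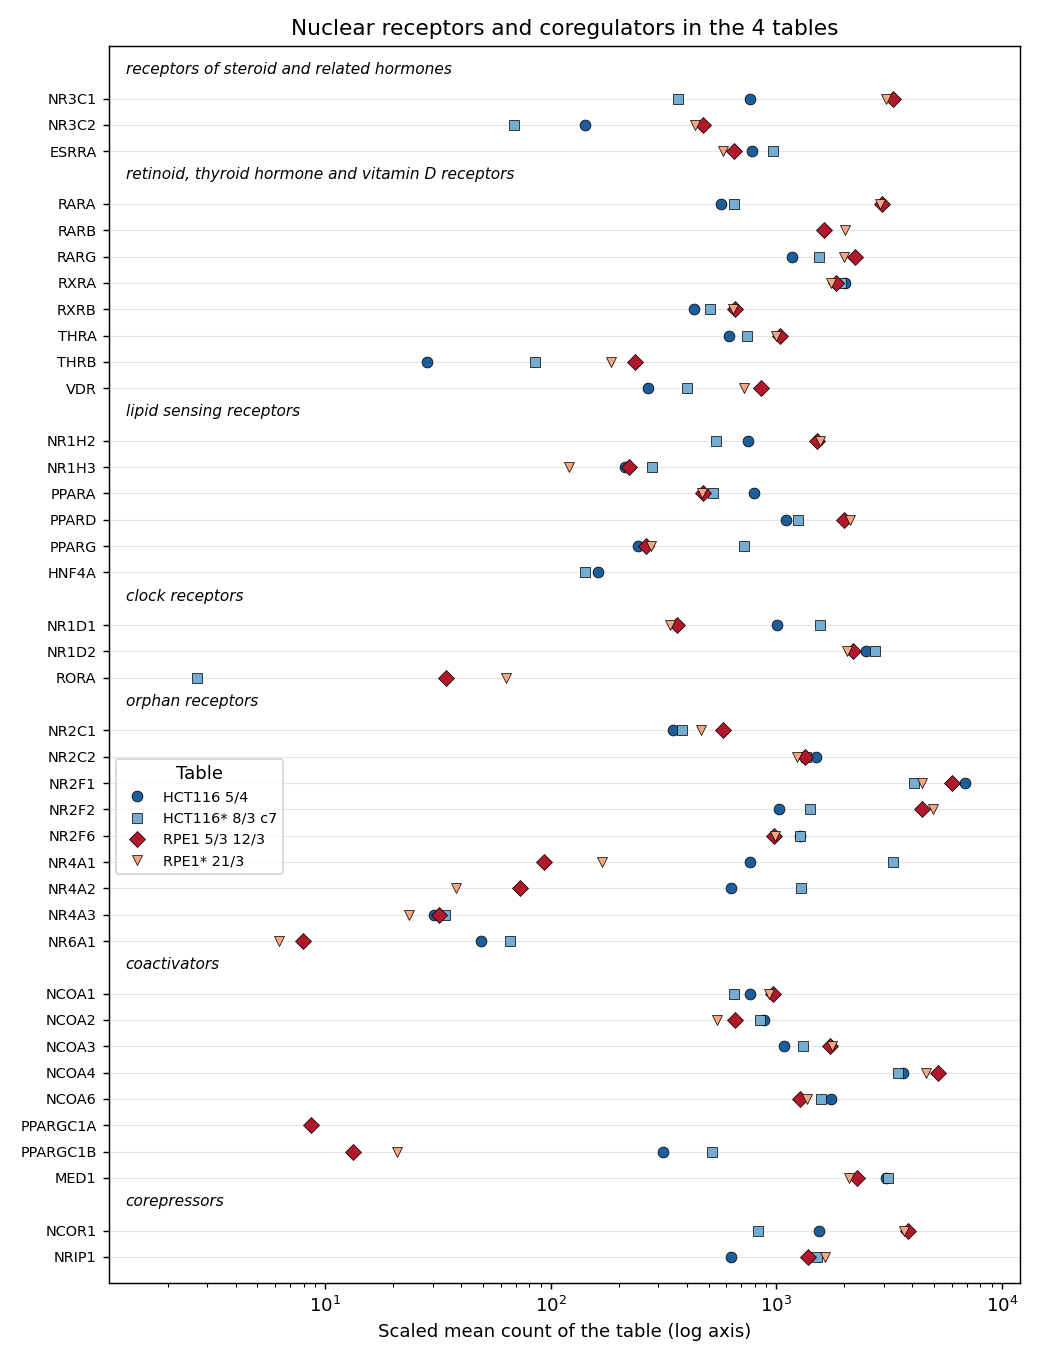
Scaled mean of each of the 39 members in the 4 tables (x axis, log scale, scaled counts), grouped by role. Each point is 1 table, a mean pooled by the authors over 6 libraries with no error bar, and a missing point means no entry. RARB has points for the RPE1 tables alone and HNF4A for the HCT116 tables alone, while RXRA lies between 1750.2 and 2008 in all 4.

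Levels between genes were compared per length, as the mean divided by the exon length of the gene and scaled to the same sum in every table. NR2F1 (COUP-TFI, an orphan receptor that often represses) and NCOA4 (a coactivator that also serves as the cargo receptor for ferritin breakdown) were the highest members in all 4 tables. NR2F1 reached a level per length of 414 in HCT116 5/4, 238 in HCT116* 8/3 c7, 300.5 in RPE1 5/3 12/3 and 222 in RPE1* 21/3. NCOA4 had 242, 224, 286 and 255 in the same order. Among all genes of a table these levels stood at percentiles of 93.9 to 97.3 for NR2F1 and 94.3 to 95.5 for NCOA4. Next came NR2F6 in HCT116 5/4, NR1D1 in HCT116* 8/3 c7 and NR2F2 in both RPE1 tables by exon length. With the longest transcript as length, NR4A1 (119.8) lay above NR1D1 (104) in HCT116* 8/3 c7.

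At the other end of the levels per length, among the 36 members with a mean of at least 10 in the table, NR6A1, NR4A3 and THRB were the lowest members in the HCT116 tables, and NR4A3, RORA and PPARGC1B in the RPE1 tables. NR4A3, an immediate early orphan receptor, had scaled means of 30.5, 33.8, 31.8 and 23.5, low in every table. Members under that mean were lower still in part, with NR6A1 at levels per length of 0.247 and 0.193 in RPE1, PPARGC1A at 0.174 in RPE1 5/3 12/3 and RORA at 0.0407 in HCT116* 8/3 c7. Of the members, 52.8% lay above the median level per length of all genes in both tables of HCT116, and 63.9% and 61.1% did so in those of RPE1. Taking the longest transcript as the length moved single levels by 0.683-fold to 1.81-fold, so neighbours in this order within that span cannot be ranked.

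The comparison between cell types asked which members were at least 2-fold higher in both tables of 1 type than in both of the other. Of 35 members with an entry in all tables, 7 were higher in the RPE1 tables (20.0%), against 12.0% of 12963 genes by the same rule. In the other direction 5 members were higher in the HCT116 tables (14.3%), against 11.3% of all genes. Among these, NR6A1 had means under 10 in both RPE1 tables and met the filter on the mean through HCT116 alone. The shares of all genes hold such genes too, since the filter acts on the highest mean of a gene. The median log2 ratio of RPE1 over HCT116 was −0.04 for the members and −0.01 for all genes. Scaling by the sum of the means instead moved the median of all genes by −0.36, and no scaling moved it by −0.28. The split of all genes past 2-fold was 1554 higher in RPE1 and 1470 higher in HCT116 with the median ratio, 1090 and 2293 with the sum, and 1148 and 1909 with no scaling. Under both other scalings NCOR1, NR1H2 and THRB were no longer past 2-fold, which left 4 members higher in RPE1, and the 5 higher in HCT116 remained. No member changed the sign of its ratio.

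**Figure D2:**
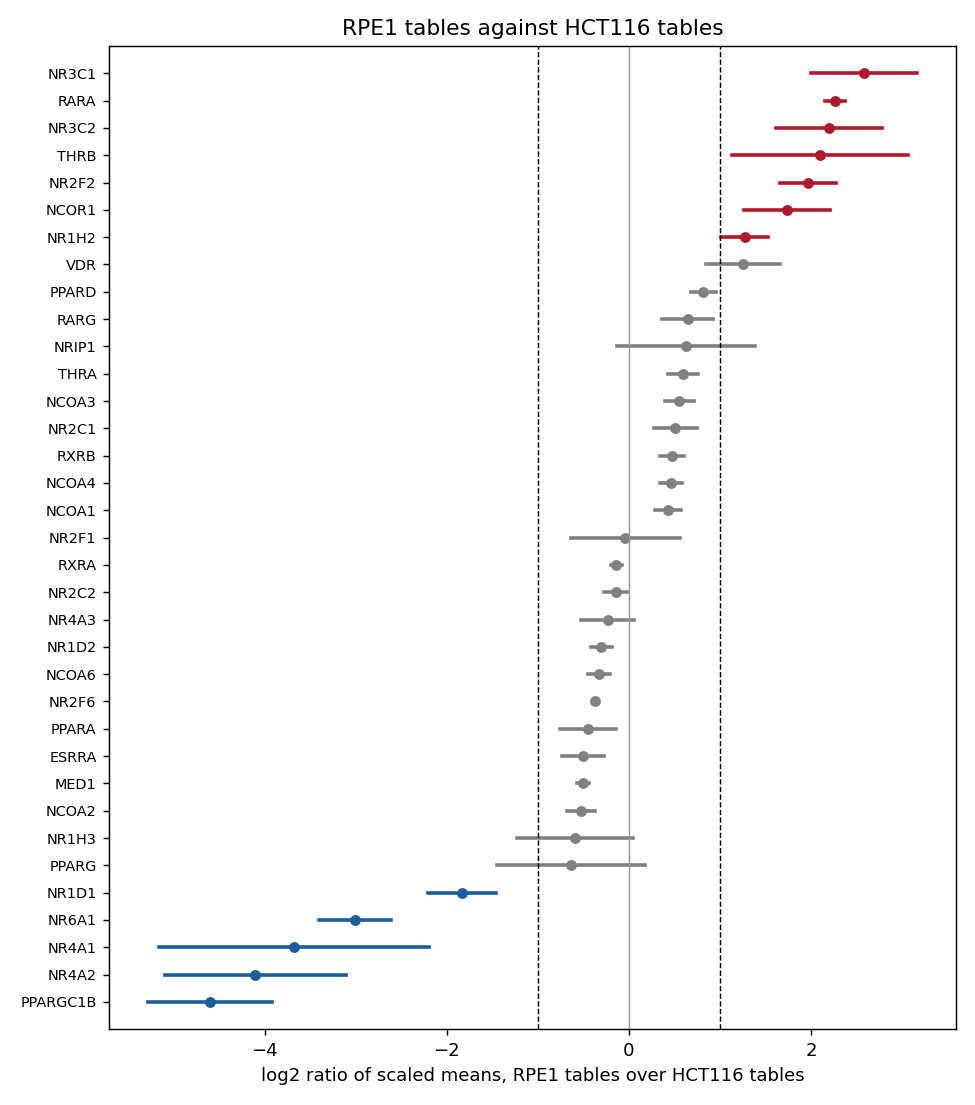
Log2 ratio of scaled means, RPE1 tables over HCT116 tables, for the 35 members with an entry in all 4 tables. Points are the ratio of geometric means and bars run from the smallest to the largest of the 4 pairings of an RPE1 with an HCT116 table, so they are no error bars. Dashed lines mark 2-fold. The 7 members in red lie wholly right of the upper line, the 5 in blue wholly left of the lower line, and 23 in grey do neither.

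Among the receptors for steroid hormones, the glucocorticoid and mineralocorticoid receptors stood out. NR3C1, the glucocorticoid receptor (GRCh37 chr5:142657496-142815077, minus strand), had scaled means of 766 in HCT116 5/4, 368 in HCT116* 8/3 c7, 3293 in RPE1 5/3 12/3 and 3052 in RPE1* 21/3. Values given below without a table name follow this order of tables. The RPE1 tables lay 3.98-fold to 8.95-fold above the HCT116 tables. NR3C2, the mineralocorticoid receptor (chr4:148999913-149365850, minus strand), had 142, 68.9, 471 and 434. Its RPE1 means were 3.05-fold to 6.84-fold higher. Per length the glucocorticoid receptor was the more abundant of the pair, with levels of 79.1 and 73.1 in RPE1 against 15.7 and 14.4. ESRRA, the estrogen-related receptor that drives mitochondrial genes without a known hormone, went the other way by less than 2-fold, from 783 and 966 in HCT116 to 649 and 581 in RPE1.

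Of other steroid receptors outside the member list, PGR had no entry in any table. ESR1 had entries of 7.30 and 19.6 in the RPE1 tables and ESR2 of 14.0 and 5.47 in the HCT116 tables. In all, 8 of 19 receptors outside the list had no entry anywhere.

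All 6 chaperones and cochaperones of the glucocorticoid receptor had log2 ratios of RPE1 over HCT116 below 0, from −1.57 to −0.31, but only FKBP4 passed 2-fold in every pairing. The targets of the receptor did not share 1 direction. HSP90AA1 had scaled means of 86001 and 69165 in HCT116 against 32527 and 39042 in RPE1. Of 7 target genes with an entry in all tables, KLF9 and SGK1 were higher in RPE1 and PER1 was higher in HCT116. MT2A, TSC22D3 and DUSP1 were also higher in RPE1 in every pairing, but by only 1.97-fold, 1.77-fold and 1.04-fold in the smallest. The median log2 ratio of RPE1 over HCT116 for the 7 was 1.42. SGK1, a kinase that controls sodium transport, had 224 and 95.8 in HCT116 against 1019.8 and 1351 in RPE1. PER1, which is also a clock gene, had 1047 and 1325 in HCT116 against 223 and 252 in RPE1. FKBP5, another classical target that is also among the 6 chaperones and cochaperones, had 1274 and 2169 in HCT116 against 858 and 772 in RPE1.

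All 3 retinoic acid receptors had their higher means in RPE1. RARB (chr3:24729378-25639423, plus strand) had no entry in the HCT116 tables and scaled means of 1632 in RPE1 5/3 12/3 and 2016 in RPE1* 21/3. The smallest mean listed was 3.36 in the HCT116 5/4 table and 1.98 in the HCT116* 8/3 c7 table before scaling. RARA (chr17:38465432-38513895, plus strand) had 568 and 648 in HCT116 and 2942 and 2874 in RPE1, 4.43-fold to 5.17-fold higher with the 2 tables of each type close together. RARG, at 1175 and 1547 in HCT116 and 2232 and 1998 in RPE1, was higher in RPE1 in all 4 pairings, but only by 1.29-fold to 1.90-fold. The tables of each type thus lay apart for all 3, with RARB listed in RPE1 alone.

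Their partners varied little. RXRA, the common dimer partner, had scaled means of 2008, 1939, 1841 and 1750.2, so that RPE1 and HCT116 differed by at most 1.15-fold. RXRB had 433, 509, 656 and 643. RXRG had no entry. The RXRB exons overlap those of SLC39A7 over 9.26% of their length, and the counting call given in the study's methods names no strand option.

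Genes that supply, bind and clear the ligands of these receptors differed between the cell types in both directions. Of 9 with an entry in all tables, 1 was higher in RPE1, DIO2, and 4 were higher in HCT116, among them CRABP2, CYP26B1 and CYP27B1. Of 5 retinoic acid targets, TGM2 was higher in RPE1, and CRABP2 and CYP26B1, which are in both lists, in HCT116. STRA6 had 358 and 41.5 in HCT116 against 13.3 and 20.8 in RPE1, higher in HCT116 by only 1.99-fold in the smallest pairing. The median log2 ratio of RPE1 over HCT116 for the 5 was −1.66. DHRS3, from the list of ligand supply and clearance, was higher in RPE1 in every pairing, by 1.72-fold in the smallest. Among the other targets, RARRES1 was listed in RPE1 alone, with 55.0 and 57.4, and RARRES3 had 54.8 in HCT116 5/4, no entry in HCT116* 8/3 c7, and 736 and 231 in RPE1. CRABP2, which delivers retinoic acid to its receptors, had 3360 and 4887 in HCT116 against 229.9 and 273 in RPE1. CYP26B1, a hydroxylase that clears it, had 729 and 572 against 173 and 241. CYP26A1, whose promoter window is printed above, had 6.10 and 13.1 in HCT116 and no entry in RPE1. Neither hydroxylase followed RARB across the cell types. ALDH1A3, which makes retinoic acid, had 7084, 6364, 7256 and 8249 and differed little, and TGM2, a transglutaminase induced by retinoids, had 2248 and 583 in HCT116 against 42937 and 15036 in RPE1.

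Of the thyroid hormone receptors, THRB (chr3:24158644-24537247, minus strand) was low in HCT116, with scaled means of 28.2 and 84.8, and reached 235 and 185 in RPE1. It lay 2.19-fold to 8.34-fold higher in RPE1, the widest span of the 7. THRA had 615, 742, 1040.1 and 996.7, and its exons share 473 bases with NR1D1 on the opposite strand, 6.45% of its own length. DIO2, the deiodinase that activates thyroid hormone, had 4.98 and 2.52 in HCT116 against 281 and 326 in RPE1. DIO3, which inactivates the hormone, had 36.6 and 14.5 in HCT116 and no entry in RPE1.

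VDR, the vitamin D receptor (chr12:48235320-48336831, minus strand), had scaled means of 270.3, 399, 850.2 and 717. It was higher in RPE1 in all pairings, but the smallest was 1.79-fold, so it was not counted. The enzymes of vitamin D did not share its direction. CYP27B1, which makes the active hormone, had 249 and 159 in HCT116 against 33.6 and 17.4 in RPE1. CYP24A1, which degrades it and is the classical target of the receptor, had 2185 and 6506 in HCT116, 4.92 in RPE1 5/3 12/3 and no entry in RPE1* 21/3.

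Among the lipid-sensing receptors, NR1H2 (LXR-beta, an oxysterol receptor that controls cholesterol export) had 748 and 539.5 in HCT116 and 1509 and 1557 in RPE1. Its smallest pairing was 2.02-fold, just past the threshold, and 22.1% of its exon length is shared with NAPSA. NR1H3 (LXR-alpha) had 214, 281, 221 and 120.1 and overlapped between the types. Of 5 LXR targets with an entry in all tables, the cholesterol exporter ABCA1 was higher in RPE1 (171 and 88.7 against 1824 and 1398), and MYLIP, the ligase that degrades the LDL receptor, was higher in HCT116 (256 and 294 against 71.9 and 71.7). SREBF1, SCD and LPCAT3 were also higher in HCT116 in every pairing, but by only 1.68-fold, 1.94-fold and 1.11-fold in the smallest. The median log2 ratio of RPE1 over HCT116 for the 5 was −1.17. The targets thus did not share 1 direction.

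The 3 PPARs, receptors for fatty acids, had different orders. PPARD had scaled means of 1099.6, 1243, 1997 and 2125, higher in RPE1 by 1.61-fold to 1.93-fold. PPARA was highest in HCT116 5/4, with 792, 522, 473 and 468. PPARG, the adipogenic member, stood apart in 1 table, with 244 in HCT116 5/4, 719 in HCT116* 8/3 c7, 263 in RPE1 5/3 12/3 and 277 in RPE1* 21/3. Of 4 PPAR targets with an entry in all tables none passed 2-fold in either direction.

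HNF4A, a fatty acid-binding receptor that maintains gut and liver epithelium (chr20:42984339-43061485, plus strand), had 162 and 142 in HCT116 and no entry in RPE1. It mirrored RARB in this respect. Its relative HNF4G had 32.1 and 69.6 in HCT116 against 8.54 and 12.2 in RPE1, and its gut partner CDX2 had 311 and 349 in HCT116 and no entry in RPE1. The targets APOA1, APOB and TTR had no entry in any table.

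The clock receptors repress or activate the core clock gene ARNTL through shared DNA sites. NR1D1 (REV-ERB-alpha, a repressor) had 1003 and 1562 in HCT116 against 364 and 338 in RPE1, 2.76-fold to 4.62-fold higher in HCT116. Its exons share 18.0% of their length with THRA, a gene whose means were higher in RPE1. NR1D2 (REV-ERB-beta) had 2488, 2729, 2181 and 2047 and differed by at most 1.33-fold. RORA, an activator at the same sites, had no entry in HCT116 5/4, 2.70 in HCT116* 8/3 c7, and 34.2 and 63.4 in RPE1. It was among the lowest members per length even in RPE1.

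Of 10 clock partners, PER3 was higher in RPE1, NFIL3 and PER1 were higher in HCT116, and 7 were neither. ARNTL had 315, 309.6, 317 and 291, nearly level across the tables that differed in NR1D1. DBP, an output gene of the clock, had 597 and 687 in HCT116 against 271 and 327 in RPE1. All cultures were read without a time of day in the labels, so phase cannot be told from these means.

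The NR4A orphan receptors, products of immediate early genes that respond to serum and stress, gave, with PPARGC1B, the widest differences between cell types among the 35 members with an entry in all tables, which leaves out RARB and HNF4A. NR4A1 (NUR77, chr12:52416616-52453291, plus strand) had scaled means of 765 in HCT116 5/4, 3303 in HCT116* 8/3 c7, 92.8 in RPE1 5/3 12/3 and 168 in RPE1* 21/3. NR4A2 (NURR1, chr2:157180949-157198860, minus strand) had 629.8, 1288, 72.9 and 37.8. The HCT116 tables were higher by 4.56-fold to 35.6-fold for NR4A1 and by 8.64-fold to 34.1-fold for NR4A2, spans wide enough that the size of the difference depends on the pairing. NR4A3 did not share it.

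NR6A1, the germ cell nuclear factor that silences pluripotency genes, had 48.8 and 66.1 in HCT116 against 7.99 and 6.26 in RPE1, 6.11-fold to 10.6-fold higher in HCT116. Its RPE1 means were under 10. The COUP-TF receptors split. NR2F2 (COUP-TFII, a regulator of mesenchymal and vascular fate, chr15:96869167-96883492, plus strand) had 1025 and 1404 in HCT116 against 4435 and 4960.0 in RPE1, 3.16-fold to 4.84-fold higher, while NR2F1 had 6890.1, 4067, 5984 and 4441 with overlapping types. NR2F6 had 1266, 1274, 972 and 984. Per length, NR2F2 stood at percentiles of 62.8 and 71.5 of all genes in HCT116 and of 90.7 and 91.7 in RPE1.

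The testicular receptors NR2C1 and NR2C2, which bind the same direct repeats as retinoid receptors, differed by less than 2-fold. NR2C1 had 346, 383, 580.1 and 463, and NR2C2 had 1499, 1349.8, 1333 and 1238. The exons of NR2C2 overlap those of FGD5-AS1 and MRPS25 over 61.9% of their length in GENCODE, and how reads in the shared part were counted was not tested.

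Of 7 coactivators with an entry in all tables, 1 passed 2-fold between the cell types. Of all genes, 12.0% did so towards RPE1 and 11.3% towards HCT116. The p160 proteins, which bring histone acetyltransferases to receptors, had scaled means of 762, 648, 963 and 926 for NCOA1, 877, 849.5, 656 and 548 for NCOA2 and 1076, 1308, 1721 and 1765 for NCOA3. MED1, the Mediator subunit that touches receptors, had 3065, 3124, 2266 and 2107, and NCOA6 had 1739, 1568, 1276 and 1360.0. NCOA4 had 3659, 3474, 5186 and 4628. The differences between the cell types for these 6 genes were all below 2-fold.

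PPARGC1B (PGC-1-beta, which with ESRRA drives mitochondrial biogenesis, chr5:149109861-149234585, plus strand) was the coactivator past 2-fold, with 313 and 517 in HCT116 against 13.3 and 20.7 in RPE1. It was 15.1-fold to 38.9-fold higher in HCT116. Its relative PPARGC1A had 1 entry, 8.62 in RPE1 5/3 12/3, and PPRC1, another of that family, had 2273 and 3092 in HCT116 against 1709 and 1896 in RPE1. ESRRA, their partner, differed far less, as given above.

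Of the corepressors, NCOR1 (chr17:15932379-16121499, minus strand), the scaffold of a histone deacetylase complex, had 1544, 830.4, 3846 and 3692, 2.39-fold to 4.63-fold higher in RPE1. NRIP1 (RIP140, a repressor of metabolic genes) had 631, 1510.3, 1376 and 1649, so the HCT116* 8/3 c7 mean lay among the RPE1 means. Of 20 coregulators outside the member list, 2 were higher in RPE1, among them the acetyltransferase KAT2B with 389 and 166 in HCT116 against 1012 and 884 in RPE1, and none was higher in HCT116. HDAC3, the deacetylase of the NCOR1 complex, had 2013, 1606, 1505 and 1253.5 and lay slightly lower in RPE1.

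**Figure D3:**
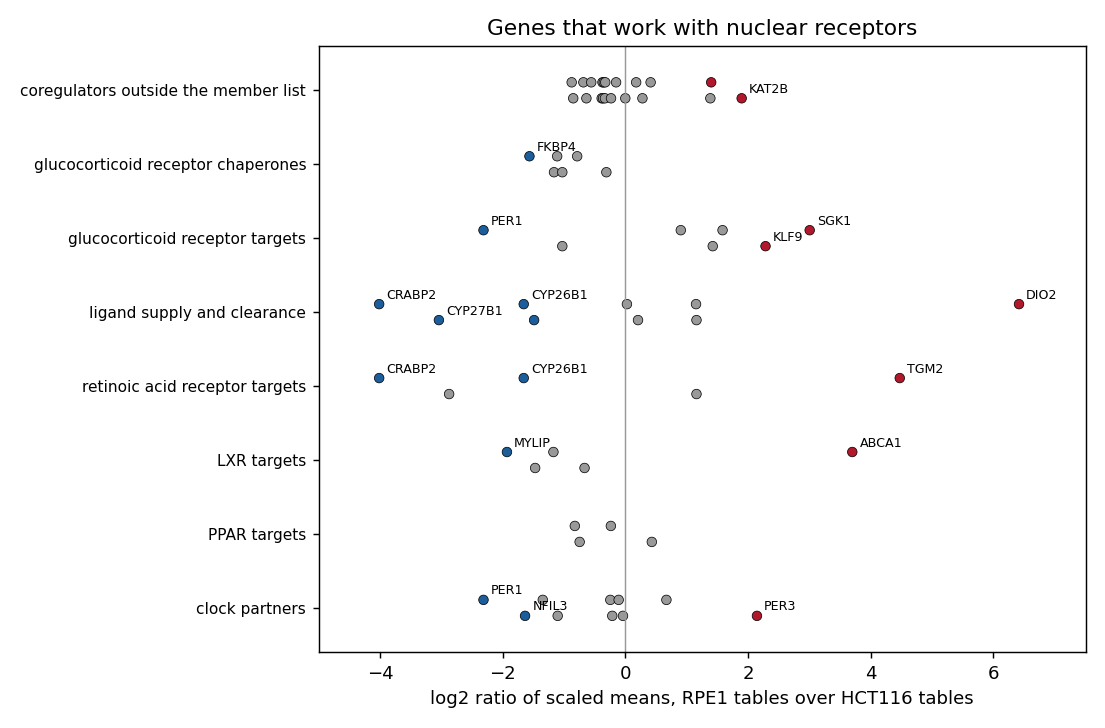
Log2 ratio of scaled means, RPE1 tables over HCT116 tables, for genes that work with the members, by list (rows). Each point is 1 gene with an entry in all 4 tables; red marks genes at least 2-fold higher in both RPE1 tables, blue in both HCT116 tables, and grey neither. Points of 1 list are set on 2 heights for legibility, and most red and blue points carry the gene's symbol. The 4 PPAR targets lie between −0.83 and 0.43, while ligand supply and retinoic acid target genes spread to both sides, from CRABP2 at −4.02 to DIO2 at 6.42.

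The 23 members past 2-fold in neither direction had log2 ratios from −0.63 for PPARG to 1.25 for VDR, 10 above 0 and 13 below. Those just inside the threshold were NR1H2 at 2.02-fold and THRB at 2.19-fold in their smallest pairing, and those just outside were VDR at 1.79-fold and PPARD at 1.61-fold.

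Tables of the same cell type were then set against each other, since they differ in the gained chromosome. In HCT116 2 of 36 members, NR3C1 and NR3C2, were at least 2-fold higher in the HCT116 5/4 table (5.56%, against 3.91% of 14079 genes). In the other direction 5 of 36, NR4A1, NR4A2, NRIP1, PPARG and THRB, were lower in it (13.9%, against 2.24% of all genes). The difference was 4.32-fold for NR4A1, 3.01-fold for THRB, 2.95-fold for PPARG, 2.39-fold for NRIP1 and 2.05-fold for NR4A2. The line HCT116 5/4 came from another laboratory, and the 2 HCT116 tables also differ in H2B-GFP and in karyotype. These differences cannot be told apart.

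Between the RPE1 tables no member passed 2-fold in either direction, 0 of 36 each, where 1.95% and 2.37% of 13365 genes did. The furthest apart were NR4A2, 1.93-fold higher in RPE1 5/3 12/3, RORA, 1.85-fold higher in RPE1* 21/3, NR1H3, 1.84-fold higher in RPE1 5/3 12/3, and NR4A1, 1.81-fold higher in RPE1* 21/3. The median difference either way was 1.08-fold for the members and 1.13-fold for all genes, compared with 1.27-fold and 1.17-fold between the HCT116 tables. THRB, PPARG and NRIP1, apart in HCT116, thus differed by 1.27-fold, 1.05-fold and 1.20-fold in RPE1.

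**Figure D4:**
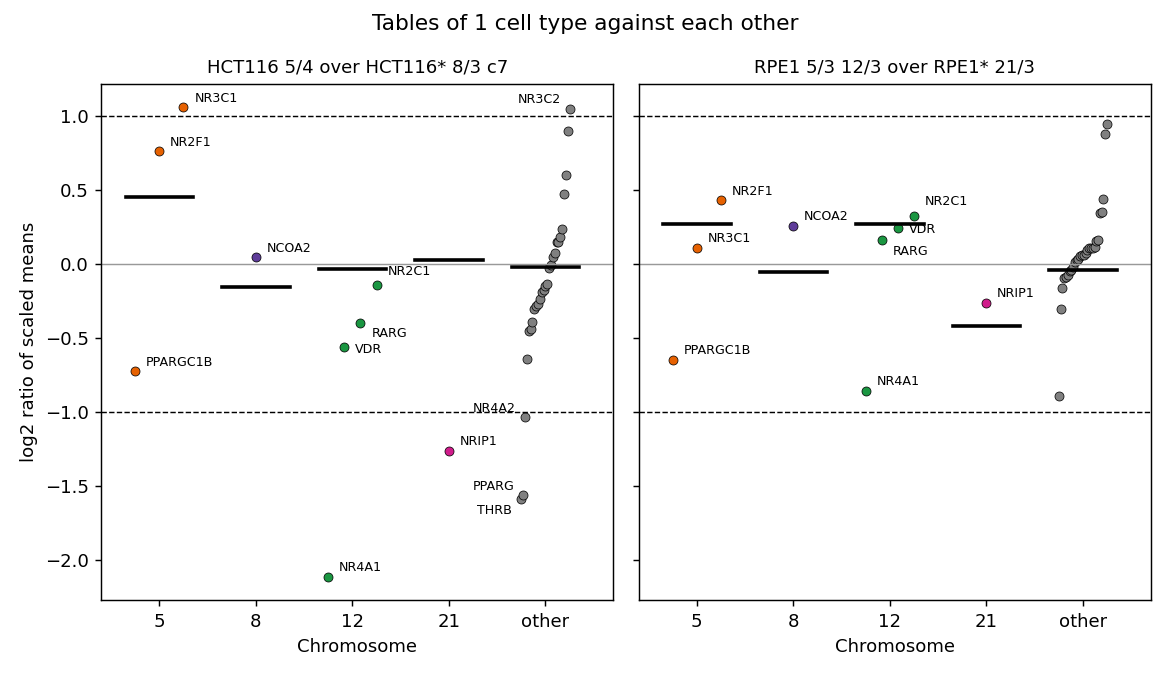
Log2 ratio of scaled means between the tables of 1 cell type (left HCT116, right RPE1; y axis) for the 36 members with a ratio in each pair, by chromosome (x axis). Points are members, black bars are the median of all genes of that chromosome, and dashed lines mark 2-fold. NR3C1 and NR2F1 lie above the chromosome 5 bar of 0.45 on the left, and PPARGC1B on the same chromosome lies below 0 in both panels.

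Members on the gained chromosomes were read against all genes of the same chromosome. If the signal followed copy number, a mean pooled over 3 aneuploid and 3 parental libraries would be 1.5-fold higher with 4 copies and 1.25-fold higher with 3. Between the HCT116 tables the 584 genes of chromosome 5 had a median of 1.37-fold. On this chromosome NR3C1 was 2.08-fold and NR2F1 1.69-fold higher in HCT116 5/4, above 84.2% and 70.9% of the genes there. PPARGC1B, on the same chromosome, was 0.606-fold, that is lower in the table with the tetrasomic line than 97.4% of its neighbours.

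Between the RPE1 tables, where chromosome 5 is trisomic in RPE1 5/3 12/3, the median of 610 genes was 1.21-fold. NR2F1 had 1.35-fold, NR3C1 1.08-fold and PPARGC1B 0.640-fold. PPARGC1B was thus the member of chromosome 5 with the lowest ratio in both pairs of tables.

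On chromosome 12, also trisomic in RPE1 5/3 12/3, the median of 680 genes was likewise 1.21-fold. NR2C1 had 1.25-fold, VDR 1.19-fold and RARG 1.12-fold, close to that median on either side. NR4A1 had 0.553-fold and lay below 98.8% of the genes of the chromosome. Between the HCT116 tables, neither labelled with a gain of chromosome 12, NR4A1 had 0.232-fold and VDR 0.677-fold against a median of 0.979-fold. The part of copy number in the ratios of either pair was not tested.

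NRIP1 (chr21:16333556-16438257, minus strand) was the member on chromosome 21. In RPE1 its mean was 0.834-fold in the 5/3 12/3 table relative to RPE1* 21/3, where the median of 121 genes was 0.747-fold and copy number alone would give 0.8-fold. In HCT116, with no chromosome 21 gained, it was 0.418-fold against a median of 1.02-fold. NCOA2, the member on chromosome 8, was 1.03-fold in HCT116 5/4 relative to HCT116* 8/3 c7, the line with 3 copies, where the median of 452 genes was 0.896-fold. It lay above 70.4% of the genes of that chromosome.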

How the data were processed

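Total RNA was sequenced from 24 libraries of 8 lines. Per the paper's methods and the submitters' processing notes, the authors trimmed adapters with cutadapt, mapped reads to hg19 with TopHat2 2.0.10, counted them per gene with featureCounts 1.4.3 and ran DESeq2 for every pair of aneuploid and parental line. The version of DESeq2 is not given in the sources used here. The deposited signal is a mean, taken by the authors, of counts divided by size factors over the 6 libraries of a table. Each of the 4 tables also holds 5 columns of the authors' comparison, namely fold changes, standard errors, test statistics and p-values with and without adjustment, and these were not used. With pooled means alone there is no test, and precision per library is unknown.

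The tables were scaled to each other by the median over genes of the ratio to the gene's geometric mean. Genes were compared at 2-fold where the deposited mean reached 10 in 1 table or more. The rule was tried on simulated data with few changed genes, as many raised as lowered, and little noise. That setting is simpler than the real tables, so the performance of the rule on them was not tested. Genes were placed by symbol in GENCODE release 44 on GRCh37 (93.3% of 16742 genes, 1465 by a RefSeq synonym), and levels were divided by the length of the union of exons. Members on chromosomes 5, 8, 12 and 21, members past 2-fold and the 3 highest and lowest per length were named in full, and all others were added after their values were seen. Genes outside the member list were named freely from lists, also after their values were seen, where the rule had foreseen up to 3 at each end. The members and lists were chosen with earlier results of these data known. Alternatives were other scalings, thresholds, filters, tables and gene lengths. Python 3.11.15, numpy 2.4.6, pandas 2.3.3 and matplotlib 3.10.9 were used. Some genes of the lists are counted but not reported here by name.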

Additional observations from a re-analysis of the deposited data

How the results depend on the processing

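The 5 members higher in HCT116 did not move by over 1.5 times under any alternative for the count, which ran from 4 to 7. The 5 were 14.3% of 35 members, against 11.3% of all genes. The count stayed at 5 when scaled by the sum of the means, with no scaling and at 1.5-fold, against 17.7%, 14.7% and 18.9% of all genes. At 4-fold it was 4, against 4.57%. The 7 higher in RPE1 became 4 when the tables were scaled by the sum of their means, 4 with no scaling and 1 (RARA) at 4-fold, of 35 members, against 8.41%, 8.86% and 5.05% of all genes. Between the HCT116 tables the 7 members apart became 12 at 1.5-fold and 1 (NR4A1) at 4-fold, of 36 members, against 16.1% and 1.34% of all genes. Between the RPE1 tables the count of 0 became 2 with no scaling (NR1H3 and NR4A2) and 5 at 1.5-fold, of 36 members, against 4.88% and 11.6% of all genes. With the tables of lines without H2B-GFP alone 9 of 35 members were higher in RPE1 and 5 in HCT116, against 15.9% and 17.2% of all genes, and with those of lines with H2B-GFP alone 8 and 7 of 36, against 18.3% and 17.0%. Setting genes with no entry to the smallest mean of the table, an alternative chosen after seeing the data, gave 9 and 6 of 38, against 15.3% and 16.8% of all genes. No filter on the mean and a mean of at least 50 left the main counts of 7 and 5 as they were. The filter acts on the highest mean of a gene, so a member high in 1 cell type passes however low it is in the other. NR6A1, under 10 in RPE1, passed at 50 as well. These settings therefore cannot show how the counts depend on low means. No ratio of a single member changed direction with the scaling. For the longest transcript as length, each member was read in the table of its highest mean. Its level counted as moved where the log2 shift reached the gene's own standard deviation across the tables. This held for 11 members and not for 27. A gene that differs widely between tables is thus seldom counted, and NR1D1, which went from 152 to 104 in HCT116* 8/3 c7, was not.

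No paired analysis was possible because the means are pooled over libraries, and leaving out a library was not possible for the same reason. The pooled means carry no error, so no difference is given with one. Means near the smallest value listed are the least certain, which touches RORA, NR6A1, PPARGC1A and PPARGC1B in 1 cell type.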
